A study of Mus musculus with 6 samples.

Results

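The nuclear genes for subunits of the mitochondrial respiratory chain and ATP synthase were chosen by gene symbol alone, as the symbols that open with Nduf and a subunit class letter, the Sdh genes, and those that open with Uqcr, Cox4 to Cox8 or Atp5. The rule found 84 of the 23284 genes counted, of which 78 had enough reads to enter the test with 12453 genes in all. They comprised 35 genes of complex I, 4 of complex II, 8 of complex III, 20 of complex IV and 15 of complex V, with Atp5s and Atp5sl kept apart because their products are not structural subunits. Ndufa4 and Ndufa4l2 were placed with complex IV despite their names.

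Livers came from male mice with floxed alleles of FXR, the nuclear receptor for bile acids encoded by Nr1h4. At 8 weeks of age every mouse received an AAV8 vector with Cre and an AAV8 vector with FXR, both driven by the TBG promoter, which is active in hepatocytes. The 3 FXR-WT mice received the normal receptor, and the 3 Y67F-FXR mice received a form in which tyrosine at residue 67 was replaced by phenylalanine, so that it could not be phosphorylated there. All 6 mice were given chow with 0.5% cholic acid (CA) for 6 h at 4 weeks after injection, so both groups carried the deletion, an FXR vector and the CA challenge, and the comparison asked what the single residue changed.

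The respiratory chain passes electrons from NADH through complex I, and from succinate through complex II, to ubiquinone, then through complex III and cytochrome c to complex IV, where oxygen is reduced. Complexes I, III and IV pump protons across the inner membrane, and complex V uses the return flow to make ATP. Hepatocytes are rich in mitochondria, and most subunits are small proteins with short mRNAs encoded in the nucleus; the few subunits encoded by mitochondrial DNA do not come under the rule.

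Between 19551113 and 22053320 reads per liver fell on genes. Nr1h4 had 186 ± 30.2 CPM (read counts scaled to the size of each library, here by TMM; mean ± SD, n = 3) in FXR-WT and 175 ± 9.84 CPM in Y67F-FXR livers, and these counts do not separate reads of the mouse's own gene from any reads of the vector; its log2 ratio was -0.0938, and -0.23 to -0.00355 with a liver left out. The 7 hepatocyte markers summed to 102786 to 116591 CPM in FXR-WT and 100737 to 122621 CPM in Y67F-FXR livers. No tested marker of hepatocytes, Kupffer cells and leukocytes, stellate, endothelial or bile duct cells was called different, and of the markers of erythrocytes, muscle and brown fat only 1 each was tested, of 4, 6 and 2. The 5 stellate cell markers summed to 194 to 199 CPM in FXR-WT and 133 to 199 CPM in Y67F-FXR livers, with Lrat and Col1a1 at an unadjusted p under 0.05, and the 6 Kupffer cell and leukocyte markers to 133 to 201 CPM and 107 to 249 CPM; their part in the results was not tested. In whole liver RNA, fewer cells of a type and less RNA per cell cannot be told apart.

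Subunit mRNAs were abundant in every liver. The 84 genes together took 1.76%, 1.55% and 1.36% of the reads on genes in FXR-WT livers 1, 2 and 3, and 1.41%, 1.89% and 1.53% in Y67F-FXR livers 1, 2 and 3. The 2 groups overlapped, with the highest share in Y67F-FXR liver 2 and the lowest in FXR-WT liver 3. On average over the 6 livers 59 members exceeded 100 CPM. Per length, in RPKM (the CPM divided by the exonic length in kb), the highest member was Cox4i1, a nuclear-encoded subunit of cytochrome c oxidase, at a mean of 798 RPKM. Uqcrq, a small subunit of complex III, had 777 RPKM, and Atp5g3, which encodes the ring-forming subunit c of ATP synthase, had 757 RPKM. The highest member of complex I was Ndufa6, an accessory subunit, at 397 RPKM, and the highest of complex II was Sdhd, a membrane anchor, at 242 RPKM.

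**Figure D1:**
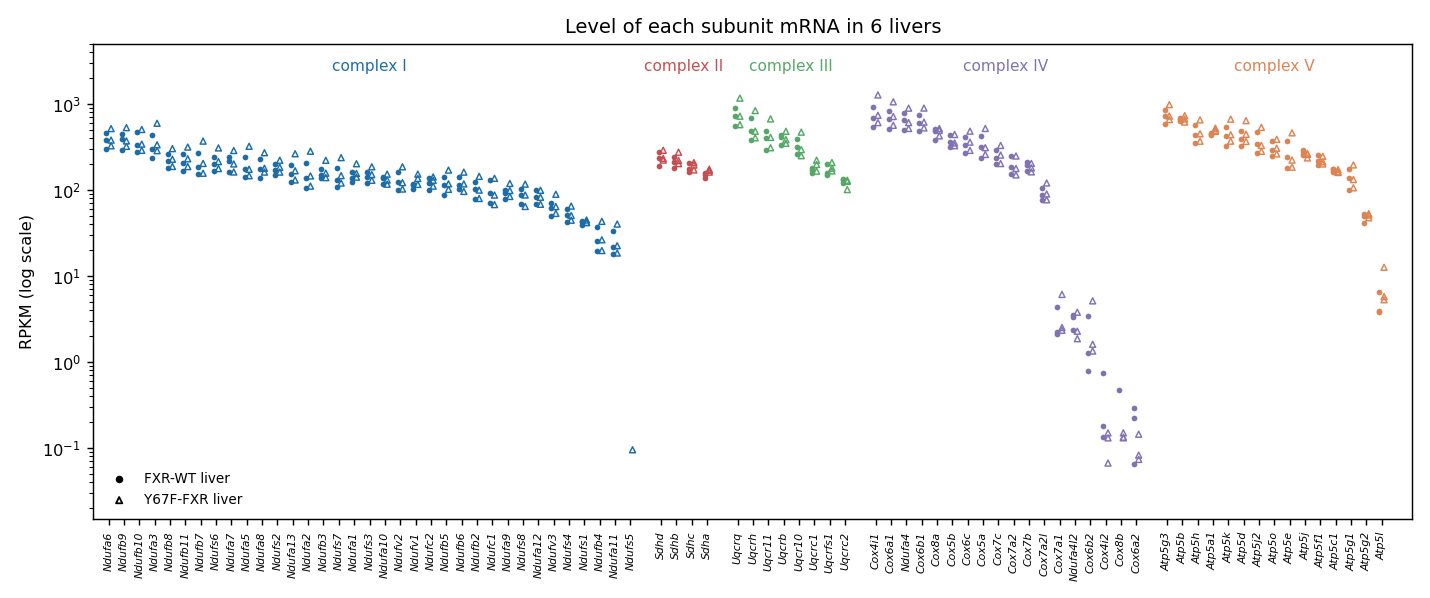
Level of each subunit gene in RPKM (log scale) in the 6 livers, ordered by complex, with filled circles for FXR-WT and open triangles for Y67F-FXR livers. Cox4i1 had a mean of 798 RPKM, while the paralogues of complex IV known from muscle, lung or testis stood far lower.

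In all 6 livers a single paralogue supplied nearly all of the RPKM of the Cox4i, Cox6a, Cox6b, Cox7b and Cox8 subunits of complex IV. Cox4i1 made up 99.9% to 100.0% of the Cox4i RPKM of a liver, and Cox4i2, known from lung, had 1 to 11 reads. Cox6a1 likewise stood against 1 to 4 reads of Cox6a2, a heart and skeletal muscle form, and Cox8a against 0 to 4 reads of the muscle form Cox8b. Cox7b2 and Cox8c, known from testis, had 0 reads in all 6 livers, which allows an expected count of up to about 3 reads per liver at 95% confidence, for counting error only. The muscle form Cox7a1 held 0.766% to 1.63% of the Cox7a RPKM, against 65.4% to 69.4% for Cox7a2 and 29.3% to 33.5% for Cox7a2l, which takes part in joining complexes III and IV. Among skeletal muscle markers, 5 of 6 had 10 reads or fewer in each liver. Ndufa4l2, a form known to be raised by low oxygen, held 0.358% to 0.513% of its pair with Ndufa4. The 3 genes for the same mature subunit c were unequal, with 78.8% to 81.1% of their RPKM from Atp5g3, 13.0% to 16.4% from Atp5g1 and 4.16% to 5.85% from Atp5g2.

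Some of these levels rest on few or ambiguous positions in the mRNA. Reads on several places or several genes were left out of the counts, and 16 of the 84 members shared at least 1 stretch of 100 bp with another annotated gene, mostly pseudogenes. Atp5l, subunit g of the membrane part of ATP synthase, shared 61.3% of its 100-bp stretches with 5 pseudogenes and had 41 to 119 reads in a liver, so its level is uncertain. Atp5g1 shared 48.1% and Atp5g2 41.4%, so the shares within the subunit c trio are uncertain too. There were 10 members with exon bases in common with another gene, among them Ndufs1, Uqcrc2 and Ndufa4l2. The counts used no strand, and Ndufs5, an accessory subunit of complex I, had 0, 0, 0, 1, 0 and 0 reads where 53.3% of its exon bases also belonged to BC002163. Ndufa11, a membrane subunit of complex I, had the lowest level of the tested members of that complex, 25.8 RPKM, with an exonic length of 2661 bp in the counted gene model against 918 bp for its longest transcript in GENCODE M21.

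Promoter letters were read for the members that RefSeq listed by symbol, 69 of 84, in windows of 250 bp before to 50 bp after each start (GRCm38.p6, not the mm9 build of the counts). The letters GCGCANGCG, the core bound by NRF1, a factor known to act on respiratory chain genes, stood on either strand in 20 of the 69 members (29.0%) and in 7.03% of all 27025 genes with a promoter listed. The YY1 letters AAGATGGCG were found in 11.6% of members and 1.64% of genes, the ETS letters CCGGAAGT in 7.25% and 4.31%, and TATAAA in 10.1% and 15.7%. Each was searched on both strands, matches of different motifs can overlap, and a match describes letters, not binding. The genes with a promoter listed include genes not tested in these livers, and shares over the tested genes alone were not taken. The 19 tested members with the NRF1 letters had a median log2 ratio, Y67F-FXR over FXR-WT, of 0.15 and the 47 without them 0.11. Windows are shown for Sdhd (chr9:50603800-50604099, minus strand), Uqcr11 (chr10:80406772-80407071, minus strand) and Cox6a1 (chr5:115348909-115349208, minus strand), all of GRCm38.p6 and written 5′ to 3′, because these members of complexes II, III and IV are described further on and hold the NRF1 letters, in capitals, at different places.
Sdhd: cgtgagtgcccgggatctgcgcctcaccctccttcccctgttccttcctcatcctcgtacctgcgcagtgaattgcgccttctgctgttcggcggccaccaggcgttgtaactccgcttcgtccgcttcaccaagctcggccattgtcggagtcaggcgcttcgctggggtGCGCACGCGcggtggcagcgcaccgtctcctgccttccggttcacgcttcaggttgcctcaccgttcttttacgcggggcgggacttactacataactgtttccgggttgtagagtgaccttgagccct
Uqcr11: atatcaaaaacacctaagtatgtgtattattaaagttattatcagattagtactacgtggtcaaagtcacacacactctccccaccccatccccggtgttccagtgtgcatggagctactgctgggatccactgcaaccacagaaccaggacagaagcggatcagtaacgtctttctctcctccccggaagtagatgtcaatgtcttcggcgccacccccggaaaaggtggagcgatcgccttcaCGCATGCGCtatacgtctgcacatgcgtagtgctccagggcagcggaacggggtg
Cox6a1: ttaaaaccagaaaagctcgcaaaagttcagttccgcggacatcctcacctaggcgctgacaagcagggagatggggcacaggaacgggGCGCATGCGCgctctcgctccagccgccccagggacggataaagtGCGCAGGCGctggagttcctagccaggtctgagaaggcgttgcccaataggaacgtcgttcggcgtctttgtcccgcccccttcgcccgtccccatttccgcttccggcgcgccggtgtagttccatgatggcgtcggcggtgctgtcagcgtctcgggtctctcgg
The letters began 79 bp before the listed start of Sdhd and 5 bp before that of Uqcr11, while Cox6a1 held them at 2 places, the first 162 bp before its start.

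No subunit gene was called different between the groups. Tested by quasi-likelihood in edgeR, with p-values adjusted over all genes after Benjamini and Hochberg, 0 of 78 members passed an adjusted p of 0.05 with a fold over 1.5, against 0.972% of all tested genes, and DESeq2 also gave 0. At an unadjusted p under 0.05 there were again 0 members, where 13.4% of all tested genes passed. The smallest adjusted p among the members was 0.446, that of Ndufv1. The fitted direction was nevertheless uneven, with 68 of 78 members (87.2%) fitted higher in Y67F-FXR livers against 52.0% of all genes, and the median log2 ratio was 0.12 against 0.01. Scaled by library totals instead of TMM, 54 of 78 were fitted higher, with a median of 0.05 where all genes had -0.06. This lean changed with single livers in fits that left the gene length trend of each liver, described further on, in place. With Y67F-FXR liver 2 left out only 14 of 78 were fitted higher, at a median of -0.10. The count was 40 without FXR-WT liver 3, at a median of 0.003. No fit left out a liver and also took out the length trend. Without FXR-WT liver 1 the median was 0.26, and without Y67F-FXR liver 1 also 0.26. Groups did not overlap in 2 members, Sdha and Atp5a1, both higher in Y67F-FXR, where 10.2% of all genes were separated in that direction. A p that misses the threshold does not show equality: the 95% interval of the fold change lay within 1.5-fold on both sides for 32 of 78 members, and reached past 1.5-fold upwards for 45 and downwards for 7. The p-values measure the spread between these 6 livers, each sequenced once.

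**Figure D2:**
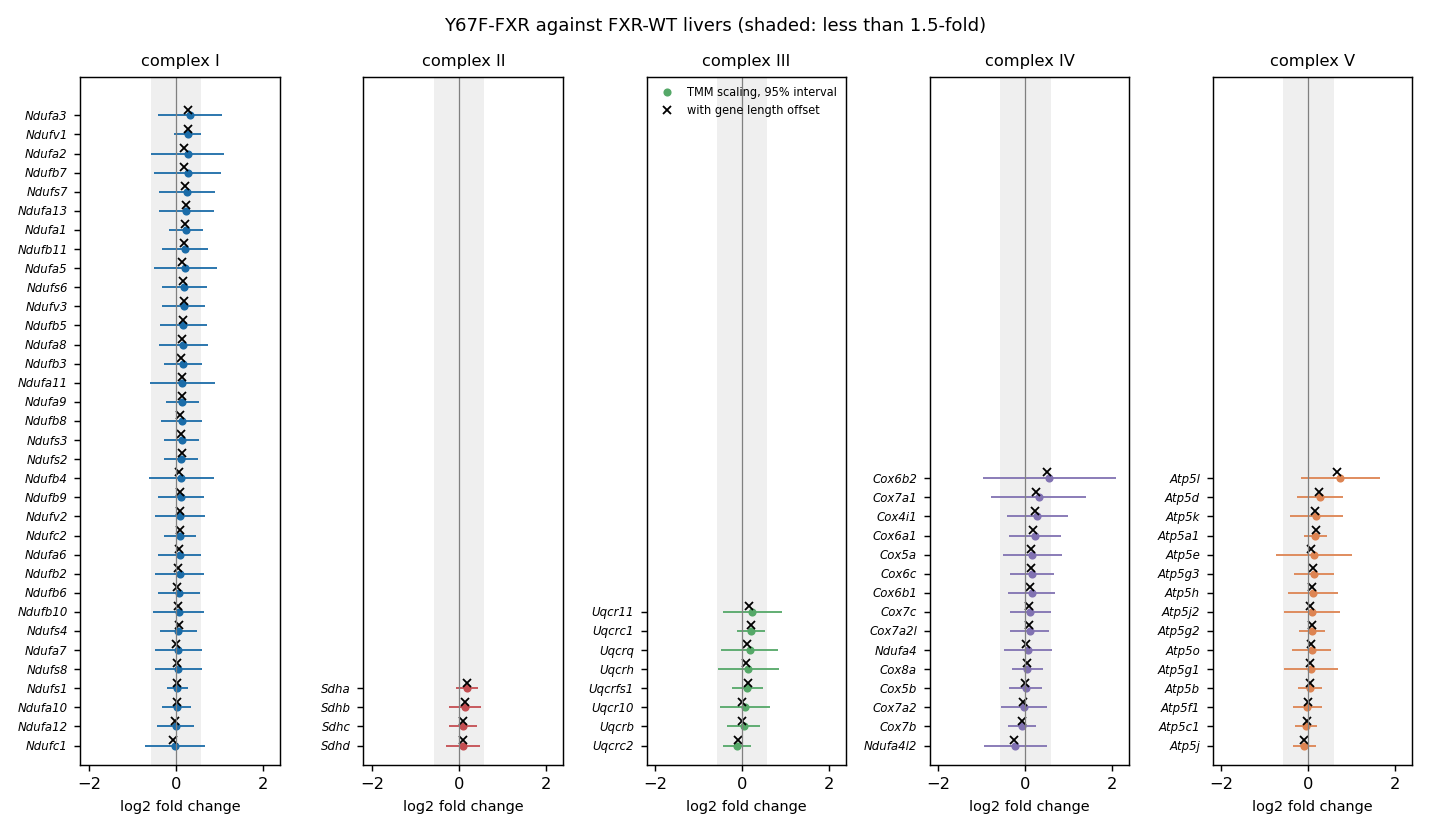
Log2 ratio (the axis names it log2 fold change) of each tested subunit gene of the 5 complexes, Y67F-FXR over FXR-WT, with its 95% interval (coloured points and lines) and the value with a gene length offset (crosses); the shaded band is less than 1.5-fold. Most members lie right of 0, 32 of 34 in complex I, and the interval of every member includes 0.

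Complex I carries the entry of electrons from NADH. Of its 34 tested members 32 were fitted higher and 2 lower, with a median log2 ratio of 0.13, and their RPKM summed to 5324 ± 1120 in FXR-WT and 5917 ± 1676 in Y67F-FXR livers (SD, n = 3). Without Y67F-FXR liver 2 the direction turned, with 4 of 34 fitted higher and a median of -0.10, and without FXR-WT liver 3 there were 20 higher. Ndufv1 (chr19:4007505-4012725, mm9), the core subunit that binds NADH, had 181, 184 and 163 CPM in FXR-WT and 183, 241 and 215 CPM in Y67F-FXR livers. The groups touched, since Y67F-FXR liver 1 lay just under FXR-WT liver 2, and the log2 ratio was 0.27 (SE 0.136, adjusted p = 0.446), or 0.16 without Y67F-FXR liver 2. Ndufa3, a small membrane subunit, had 154, 105 and 82.1 CPM in FXR-WT and 100.2, 209 and 117 CPM in Y67F-FXR livers. Its groups overlapped through most of their range, with Y67F-FXR liver 2 highest and FXR-WT liver 3 lowest, and its log2 ratio of 0.32 had an SE of 0.317. It turned to -0.0728 without Y67F-FXR liver 2 and was 0.60 without FXR-WT liver 1. Ndufa1, another small membrane subunit, had 79.0, 68.8 and 61.6 CPM against 69.6, 99.8 and 76.9 CPM, a log2 ratio of 0.23 (adjusted p = 0.638). Its groups overlapped between 69.6 and 79.0 CPM, and without Y67F-FXR liver 2 its log2 ratio was 0.0596. Ndufs1, an iron-sulfur core subunit with the longest mRNA of the members, at 2927 bp, had a log2 ratio of 0.03 (SE 0.108); it was added after its values were seen.

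Complex II, which oxidises succinate in the citric acid cycle, had all 4 members fitted higher, with a median log2 ratio of 0.11 and a summed level of 775 ± 89.1 against 842 ± 86.0 RPKM. Without Y67F-FXR liver 2 it had 2 of 4 fitted higher, at a median of 0.00052, and without FXR-WT liver 3 it had 3. Sdha (chr13:74459703-74487688, mm9), the flavoprotein, had 397, 449 and 427 CPM in FXR-WT and 485, 463 and 499 CPM in Y67F-FXR livers. All 3 Y67F-FXR livers were above all 3 FXR-WT livers, by a log2 ratio of 0.18 (SE 0.113, adjusted p = 0.567). Sdhb, the iron-sulfur subunit, had 260, 226 and 196 CPM against 218, 295 and 236 CPM, and a log2 ratio of 0.14 that was -0.012 without Y67F-FXR liver 2. The membrane anchor Sdhc had 242, 206 and 191 CPM against 202, 246 and 231 CPM, a log2 ratio of 0.0881 that was 0.013 without Y67F-FXR liver 2 and 0.19 without FXR-WT liver 1. The other anchor, Sdhd, had 356, 301 and 246 CPM against 287, 373 and 300.2 CPM, a log2 ratio of 0.0878 that was -0.0462 without Y67F-FXR liver 2 and -0.0394 without FXR-WT liver 3. The groups of Sdhb, Sdhc and Sdhd overlapped, and in these 3 genes Y67F-FXR liver 2 was highest and FXR-WT liver 3 lowest. For all 4 members the 95% interval stayed within 1.5-fold on both sides.

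Complex III passes electrons from ubiquinone to cytochrome c. It had 7 of 8 members fitted higher, with a median log2 ratio of 0.13 and a summed level of 2836 ± 581 against 3110 ± 947 RPKM. Leaving out Y67F-FXR liver 2 gave 2 of 8 higher and a median of -0.13, and leaving out FXR-WT liver 3 gave 4 and -0.013. Uqcrc1, a core protein, had 300, 282 and 260 CPM in FXR-WT and 275, 369 and 329 CPM in Y67F-FXR livers, a log2 ratio of 0.21 (SE 0.142, adjusted p = 0.614). The groups overlapped through Y67F-FXR liver 1, without which the log2 ratio was 0.31, and it was 0.0947 without Y67F-FXR liver 2. The second core protein, Uqcrc2, was the member fitted lower, with 226, 248 and 256 CPM against 245, 191 and 238 CPM, a log2 ratio of -0.12. Here Y67F-FXR liver 2 was the lowest of the 6 livers, opposite to most members, and without it the log2 ratio was -0.023. Without Y67F-FXR liver 1 it was -0.18. The small subunit Uqcr11 had 211, 176 and 127 CPM against 135, 293 and 179 CPM. Uqcrq had 454, 365 and 274 CPM against 287, 585 and 361 CPM. Both small genes spanned more than the groups differed, with log2 ratios of 0.24 and 0.17 that turned to -0.14 and -0.18 without Y67F-FXR liver 2.

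Complex IV had 12 of 15 tested members fitted higher, with a median log2 ratio of 0.11 and a summed level of 4877 ± 1050 against 5355 ± 1497 RPKM. When Y67F-FXR liver 2 was left out, 0 of 15 were fitted higher and the median was -0.13, and when FXR-WT liver 3 was left out, 7 were higher and the median was -0.0011. Cox4i1 (chr8:123192190-123198109, mm9) had 635, 469 and 363 CPM in FXR-WT and 413, 867 and 503 CPM in Y67F-FXR livers. Its group difference of 0.28 on the log2 scale (SE 0.303, adjusted p = 0.770) was smaller than the range within either group, and it was -0.11 without Y67F-FXR liver 2. Cox6a1 had 443, 355 and 273 CPM against 302, 566 and 382 CPM, with a log2 ratio of 0.22, or -0.071 without Y67F-FXR liver 2, and the same order of livers. Cox6b2, known from testis, had only 11 to 57 reads in a liver and a log2 ratio of 0.56 with an SE of 0.667, which was -0.30 without Y67F-FXR liver 2. The lowest fitted value of the members, -0.22, was that of Ndufa4l2, at 37 to 69 reads; it was -0.58 without Y67F-FXR liver 2 and -0.0247 without Y67F-FXR liver 1.

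Complex V had 12 of 15 members fitted higher, with a median log2 ratio of 0.09 and a summed level of 4898 ± 777 against 5273 ± 1029 RPKM. With either Y67F-FXR liver 2 or FXR-WT liver 3 left out, 5 of 15 were fitted higher, at medians of -0.10 and -0.038. Atp5a1, the alpha subunit of the catalytic head, had 1083, 1119 and 1050 CPM in FXR-WT and 1170, 1274 and 1206 CPM in Y67F-FXR livers. The groups were separate, at a log2 ratio of 0.17 (SE 0.112, adjusted p = 0.610). Atp5b, the beta subunit of the same head, had 1180, 1281 and 1247 CPM against 1260, 1161 and 1378 CPM, overlapped fully and had a log2 ratio of 0.03; it was added after its values were seen. Atp5d, the delta subunit of the central stalk, had 448, 363 and 305 CPM against 343, 598 and 415 CPM, a log2 ratio of 0.28. It was 0.0156 without Y67F-FXR liver 2 and 0.44 without Y67F-FXR liver 1. The highest fitted value of the members was that of Atp5l, with 3.32, 1.99 and 1.94 CPM against 2.72, 6.49 and 2.96 CPM and a log2 ratio of 0.74 (SE 0.392, adjusted p = 0.478). Its Y67F-FXR liver 2 stood apart at 119 reads, and without that liver the value was 0.22. Over all members the summed RPKM was 1.10 times as high in Y67F-FXR as in FXR-WT livers, where the same sum over all tested genes was 1.07 times as high.

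With the length trend of single livers left in, the livers of a group differed from each other more than the groups did. Medians with that trend taken out are given further on. For each gene, the deviation of a liver was taken as its log2 CPM minus the gene's mean over the 6 livers. The median deviation of the 78 members was 0.23, -0.07 and -0.34 in FXR-WT livers 1, 2 and 3, and -0.25, 0.45 and -0.03 in Y67F-FXR livers 1, 2 and 3. FXR-WT liver 1 and Y67F-FXR liver 2 were thus high, and FXR-WT liver 3 and Y67F-FXR liver 1 low, over a span of 0.79, while the means of these medians differed by 0.11 between groups with a pooled SD of 0.32. FXR-WT liver 1 was above FXR-WT liver 3 in 72 of 78 members, by 1.48-fold at the median. Y67F-FXR liver 2 was above Y67F-FXR liver 1 in 73 of 78, by 1.67-fold. In 74 of 78 members (94.9%) the ranges within both groups were larger than the group difference, which held for 67.5% of all tested genes.

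**Figure D3:**
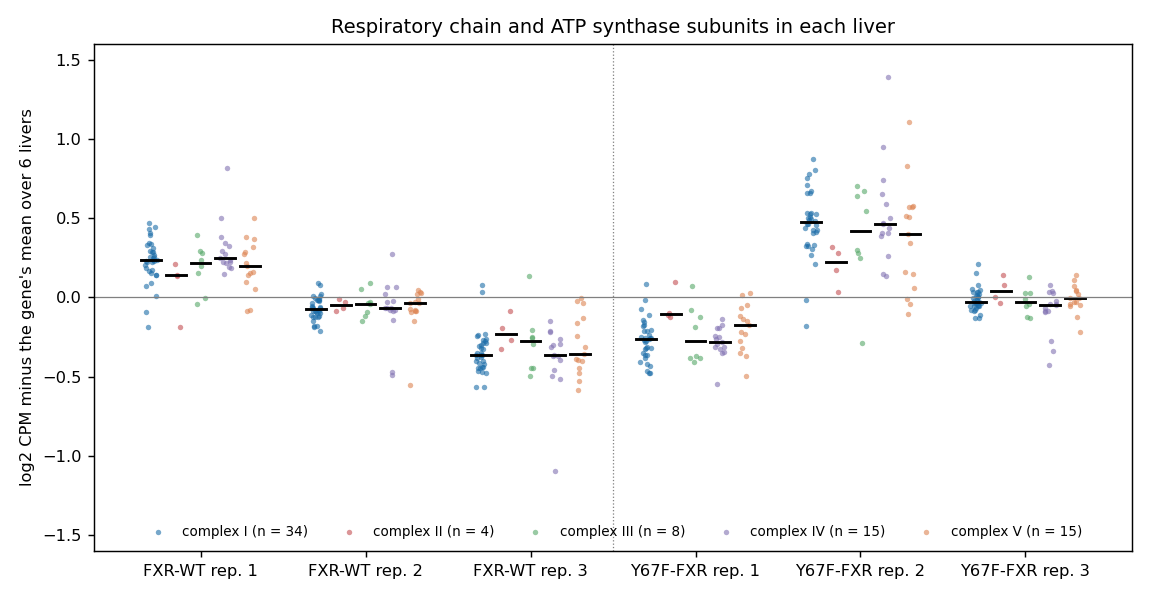
Deviation of each tested subunit gene in each liver (log2 CPM minus the gene's mean over the 6 livers), coloured by complex, with a black bar at the median of each complex. In complex I the medians run from -0.36 in FXR-WT liver 3 to 0.48 in Y67F-FXR liver 2, and in every complex FXR-WT liver 1 and Y67F-FXR liver 2 have the 2 highest medians.

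The order of livers was shared by most members. Y67F-FXR liver 2 was the highest liver for 66 members and FXR-WT liver 1 for 6, and the lowest was FXR-WT liver 3 for 59 and Y67F-FXR liver 1 for 11. FXR-WT liver 1 and Y67F-FXR liver 2 were the 2 highest and FXR-WT liver 3 and Y67F-FXR liver 1 the 2 lowest in 59 of 78 members (75.6%), against 9.93% of all tested genes. By complex the span of the median deviation over the livers was 0.84 in complex I, 0.46 in II, 0.70 in III, 0.82 in IV and 0.76 in V. Complex II, with the longest mRNAs at a median of 1232 bp, had the smallest span of the 5 complexes.

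Members were short, and short genes as a class differed between the same livers. The exonic length of tested members ran from 292 to 2927 bp with a median of 680 bp, against 2818 bp for all tested genes, and 53 members (67.9%) were under 1000 bp, against 7.22% of all. Among the 2491 shortest tested genes, of up to 1598 bp, the median deviation was 0.20, -0.02 and -0.18 in the FXR-WT and -0.20, 0.22 and -0.01 in the Y67F-FXR livers. Among the 2490 longest, of 4730 bp and more, the signs were opposite in the 4 livers that stood out, at -0.13 in FXR-WT liver 1, 0.11 in FXR-WT liver 3, 0.19 in Y67F-FXR liver 1 and -0.17 in Y67F-FXR liver 2. The trend thus separated livers within each group, and the shortest genes had a median log2 ratio of 0.02. RNA quality values were not used here, and the source of the trend was not tested.

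**Figure D4:**
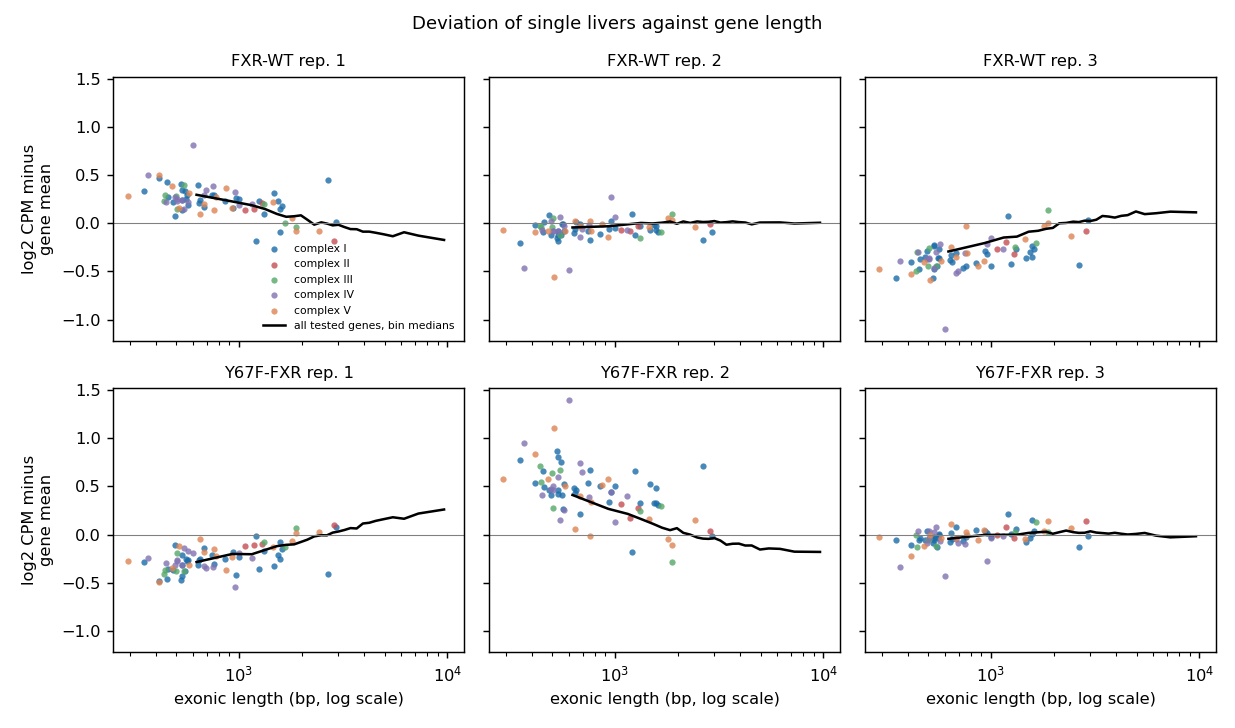
Deviation of the tested subunit genes (points, coloured by complex) against exonic length (bp, log scale) in each liver, with a black line through the medians of all tested genes in 25 length bins. The line falls with length in FXR-WT liver 1 and Y67F-FXR liver 2 and climbs in FXR-WT liver 3 and Y67F-FXR liver 1, and the points of the members lean the same way in these 4 livers.

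Among the members themselves the deviations also ran with length, in part beyond the trend of all genes. The 26 shortest members, of 292 to 546 bp, spanned 0.96 over the livers, the 26 of 549 to 963 bp spanned 0.82, and the 26 longest, of 999 to 2927 bp, spanned 0.49. Their median log2 ratios between groups were 0.15, 0.11 and 0.11, a smaller difference than in the spans. Across the 78 members, which share libraries and scaling, Spearman's rho of length with deviation was -0.53 in FXR-WT liver 1 and -0.58 in Y67F-FXR liver 2, and 0.57 in both FXR-WT liver 3 and Y67F-FXR liver 1. Over all 12453 genes the values in these livers were -0.32, -0.35, 0.32 and 0.45. In the remaining livers the members departed from all genes, with 0.21 against 0.03 in FXR-WT liver 2 and 0.43 against -0.0046 in Y67F-FXR liver 3.

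Much of the members' span went with their length. The length trend of all genes, read at the members' own lengths, gave medians from -0.31 in Y67F-FXR liver 1 to 0.40 in Y67F-FXR liver 2. The members' deviations from it had medians of -0.0275, -0.0236 and -0.10 in FXR-WT livers 1, 2 and 3. In Y67F-FXR livers 1, 2 and 3 they were 0.0432, 0.07 and 0.0282. All 3 Y67F-FXR livers were thus above all 3 FXR-WT livers, a difference that was not tested. Over all tested genes these medians lay between -0.0401 and 0.0233. The 499 shortest tested genes, with a median of 626 bp, had median deviations from -0.29 to 0.41. The 1296 other tested genes of 530 to 1239 bp, the range of the middle members, were longer at a median of 961 bp and spanned 0.49 over the livers against 0.79 for the members, and their median log2 ratio was 0.01. The 115 of these whose level also matched the middle of the members' range, 103 to 240 CPM, had a median of 930 bp and spanned 0.59, with a median log2 ratio of 0.06; these are descriptions with no test. The 71 tested cytosolic ribosomal protein genes, with a median length of 710 bp, had median deviations of 0.33, -0.00457 and -0.30 in FXR-WT and -0.29, 0.37 and -0.09 in Y67F-FXR livers, the same high and low livers, with a median log2 ratio of -0.01.

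When the length trend of each liver was taken out, the errors of the members shrank and their median group difference moved little. The trend, fitted by a loess curve over all tested genes, was entered as an offset in the same test. The median SE of the members went from 0.223 to 0.104, where that of all genes went from 0.196 to 0.171. Their median log2 ratio was 0.10, with 67 of 78 fitted higher. Adjusted p was under 0.05 in 0 members, against 2.02% of all genes, with Ndufv1 smallest at 0.180. At an unadjusted p under 0.05 there were 4 members, Ndufv1, Ndufa3, Atp5d and Atp5l, all higher in Y67F-FXR, where 8.29% of all genes passed in that direction. With the offset the log2 ratio was 0.27 (SE 0.0917) for Ndufv1, 0.27 (SE 0.106) for Ndufa3 and 0.26 (SE 0.106) for Atp5d. It was 0.67 (SE 0.230) for Atp5l, against 0.23 (SE 0.132) for Cox4i1.

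**Figure D5:**
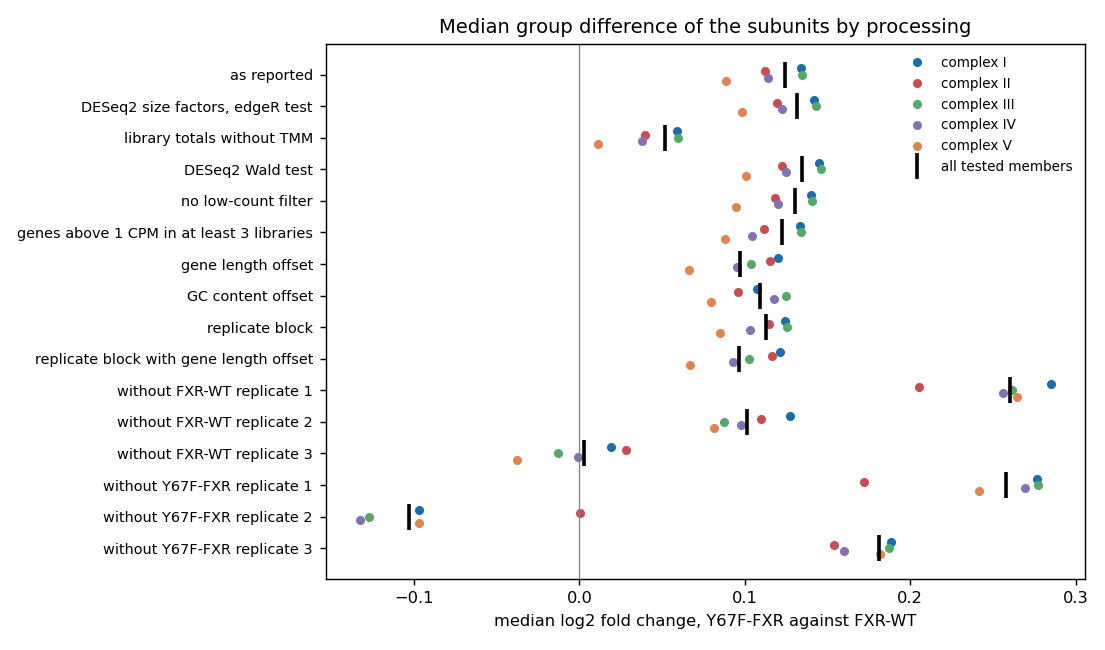
Median log2 ratio of the tested subunit genes, Y67F-FXR over FXR-WT, for each complex (coloured points) and for all 78 members (black ticks), under each way of processing the counts. The median was 0.12 as reported and fell below 0 for all members together when Y67F-FXR liver 2 was left out.

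Other genes of oxidative phosphorylation were taken as lists, and none of their tested members was called, where 0.972% of all tested genes were. Of 29 tested assembly factors, which build the complexes, 10 were fitted higher and 19 lower, with a median log2 ratio of -0.05. Groups were separate in 10 of them, 1 higher and 9 lower in Y67F-FXR, where 10.2% of all genes were separate upwards and 10.5% downwards. Their smallest p was that of Ndufaf4, a complex I assembly factor, at 37.2 ± 0.648 CPM in FXR-WT and 29.9 ± 2.02 CPM in Y67F-FXR livers (log2 ratio -0.31, adjusted p = 0.268), with separate groups. Carriers and subunits outside the symbol rule were split 10 to 10, and Cycs, cytochrome c, had a log2 ratio of -0.22 (adjusted p = 0.424). Of 14 genes of the tricarboxylic acid cycle, which supplies the electrons, 10 were fitted higher with a median of 0.14 and 6 were separate, all higher, where 10.2% of all genes were. Fh1, fumarase, which follows complex II in that cycle, had 189, 165 and 175 CPM against 222, 217 and 218 CPM, separate groups (log2 ratio 0.32, adjusted p = 0.257).

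Regulators of mitochondrial genes had 10 of 14 members fitted higher, with a median log2 ratio of 0.14. Ppargc1b, a coactivator, had 2.98 ± 0.588 CPM in FXR-WT and 4.75 ± 0.563 CPM in Y67F-FXR livers (log2 ratio 0.67, adjusted p = 0.225). Its relative Ppargc1a, a coactivator of respiratory genes, had 3.18, 3.93 and 6.65 CPM in FXR-WT and 10.4, 5.84 and 6.49 CPM in Y67F-FXR livers. Its groups overlapped, at a log2 ratio of 0.72 (SE 0.327, adjusted p = 0.397), or 0.42 without Y67F-FXR liver 1 and 1.09 without FXR-WT liver 3. With the length offset it was 0.69. Of 76 mitochondrial ribosomal protein genes, a class that is also short at a median of 1053 bp, 25 were fitted higher and 51 lower, with a median of -0.04, and 13 (of 76) were separate, all lower, where 10.5% of all genes were; the difference between this list and the subunits was not tested. The smallest p in that list was that of Mrps22, at 26.3 ± 0.721 against 17.7 ± 1.96 CPM (log2 ratio -0.57, adjusted p = 0.0969). Of 71 cytosolic ribosomal protein genes 31 were fitted higher and 40 lower, and Rpl4 had a log2 ratio of -0.24 (adjusted p = 0.436). Of 39 proteasome subunits 13 were fitted higher and 26 lower, and 10 were separate, all lower, against the same 10.5% of all genes. Psmc2 had a log2 ratio of -0.48 (adjusted p = 0.106).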

How the data were processed

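The authors deposited counts of reads per gene, not normalized, for 1 library from each of 6 livers (paired-end 100 bp reads). Per the labels and file headers, reads were trimmed with Trimmomatic 0.36, aligned with STAR 2.5.3a to mm9 and counted with featureCounts 1.4.6-p4, without strand and with each read of a pair counted singly, so 1 fragment can give 2 counts. Their table of the same comparison (log2 fold change, mean log2 CPM, p-value and false discovery rate) was not used. The members and lists were chosen with earlier results of these data known.

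Counts were filtered with filterByExpr, scaled by TMM and tested with edgeR 4.0.16 in R 4.3.3 (quasi-likelihood, 2-sided, Benjamini-Hochberg over 12453 genes); calls needed an adjusted p under 0.05 and a fold over 1.5. RPKM used the exonic length in the files, deviations a prior count of 2, and the length offset a loess span of 0.3. The code was tested on simulated counts. Alternatives were DESeq2 1.42.0 (test and size factors), library totals, no filter, a minimum of 1 CPM in 3 libraries, GC and length offsets, the replicate number as a block, and leaving out each liver. Same-numbered livers deviated with correlations of -0.52, -0.08 and 0.12. The length trend was left in these values, so they cannot show whether the numbers pair the livers. Genes named were, per complex, the 3 with the smallest p and the highest and lowest RPKM, the Sdh genes and the paralogue groups; per other list the smallest p, and Ppargc1a. Of the assembly factors listed, 30 of 38 had a row.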

Additional observations from a re-analysis of the deposited data

How the results depend on the processing

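In every alternative 0 members had an adjusted p under 0.05. The median log2 ratio of the members was 0.11 with the replicate number as a block, 0.10 with block and length offset, 0.05 with library totals (all genes then -0.06) and 0.10 to 0.13 in the other alternatives that kept all livers. It was -0.10 to 0.26 with each liver left out, in fits without the length offset. The number of members higher at an unadjusted p under 0.05 was 0 as reported, 4 with the length offset, 1 with block and length offset, and 0 to 2 with a liver left out. The block changed no call of a named gene, and whether same-numbered livers are paired is not known. Over all genes 121 were called, 8 with the block, 50 with block and length offset, 232 with the length offset, 420 by DESeq2, 9 without FXR-WT liver 3 and 26 to 66 without another liver.

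Over named genes and alternatives, 571 values kept direction and call, 3 newly passed and 39 changed sign. With library totals the log2 ratio turned for Cox8a (-0.0206), Ndufa4 (-0.0109), Atp5g1 (-0.0104), Ndufs1 (-0.0348) and Atp5b (-0.0346), and with the GC offset for Cox8a (-0.0370). Psmc2 passed under DESeq2 (adjusted p = 0.0109) and with the length offset (0.0403), and Mrps22 under DESeq2 (0.0146). The cause was not tested.

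With each liver left out, log2 ratios crossed 0 for Ndufa3 (-0.0728 to 0.60), Ndufa6 (-0.13 to 0.25), Ndufa11 (-0.26 to 0.44), Sdhb (-0.012 to 0.24), Sdhd (-0.0462 to 0.23), Uqcr11 (-0.14 to 0.46), Uqcrq (-0.18 to 0.38), Cox4i1 (-0.11 to 0.52), Cox6a1 (-0.071 to 0.41), Cox6b2 (-0.30 to 1.37), Atp5g3 (-0.0717 to 0.26), Cox6b1 (-0.11 to 0.32), Cox7a1 (-0.27 to 0.73), Cox7a2 (-0.27 to 0.17), Cox7a2l (-0.11 to 0.24), Cox7b (-0.17 to 0.00814), Cox8a (-0.0731 to 0.14), Ndufa4 (-0.20 to 0.23), Atp5g1 (-0.22 to 0.29), Atp5g2 (-0.0152 to 0.15), Ndufs1 (-0.00425 to 0.0609) and Atp5b (-0.0224 to 0.0825). Without a liver its group has 2, and depth limits Atp5l, Cox6b2, Cox7a1 and Ndufa4l2, which had under 120 reads in each liver.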
